A study of Mus musculus with 9 samples.

Results

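The mitochondrial respiratory chain was followed here through the nuclear genes for its subunits, together with Ppargc1a, which encodes the coactivator PGC-1α. The members were all probes of an Illumina MouseRef-8 BeadChip whose annotated symbol marks a subunit of NADH dehydrogenase (complex I), succinate dehydrogenase (complex II), the cytochrome bc1 complex (complex III), cytochrome c oxidase (complex IV) or ATP synthase (complex V). The rule took 97 probes of 78 genes out of 25696 probes with settled values. Complex I had 34 genes, complex II had 3, complex III had 8, complex IV had 16 and complex V had 16, and Ppargc1a had 1 probe. A probe was tested if its detection p reached 0.05 or less on at least 1 of the 9 arrays, which left 88 probes of 73 genes (33 of complex I, 3 of complex II, 7 of complex III, 14 of complex IV, 15 of complex V and Ppargc1a). Ndufs1, Uqcrq, Cox7b2, Cox8c and Atp5k were detected on no array and have no test. No probe of the annotation carried the names Sdha or Ndufa4l2, so these genes were not analysed here.

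GFAP-expressing enteric glia came from the longitudinal muscle and myenteric plexus of the small intestine of FVB mice carrying hGFAP-eGFP, a transgene in which the human GFAP promoter drives a green fluorescent protein, at postnatal day 7. All 9 samples share this strain, transgene, tissue and age, and each replicate used 1 whole litter, so animals were pooled. GFAP-glia in vivo (n = 3) were sorted for green fluorescence straight into lysis buffer without culture or agent. Untreated gliospheres (n = 3) were sorted the same way, grown for 2 weeks under 2% O2 with EGF, bFGF, N2 and B27, and then passaged onto uncoated plastic to form free-floating spheres, and LPS-stimulated gliospheres (n = 3) came from the other well of the same preparations, kept for 48 h with 100 µg/ml of lipopolysaccharide, a component of the bacterial outer membrane. Culture, low oxygen and growth factors therefore separate both gliosphere groups from the glia in vivo together and cannot be told apart.

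The respiratory chain passes electrons from NADH and succinate along complexes I to IV to oxygen and pumps protons across the inner mitochondrial membrane, and ATP synthase uses the returning protons to make ATP. Most subunits are encoded in the nucleus, many from promoters with sites for nuclear respiratory factor 1 (NRF-1) or for ETS factors such as GA-binding protein. PGC-1α and its relative PGC-1β, from Ppargc1b, work with such factors and raise mitochondrial gene expression, and several subunits of complex IV exist as a common form and as a form used mainly in muscle or testis.

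RefSeq promoters of 300 bases (250 before the start of transcription and 50 after it, mouse build GRCm38.p6) were at hand for 65 of the 78 member genes, 70 promoters in all. The NRF-1 motif (GCGCA, any base and GCGC), on either strand, stood in 15 of the 70 promoters (21.4%) and in 4.6% of all 32851 promoters. The ETS motif CCGGAAGT stood in 7.14% of the members' promoters and 3.89% of all promoters, and the core of the hypoxia response element, ACGTG, in 25.7% and 19.6%. The hypoxia core can overlap itself on the 2 strands, as in CACGTG, and matches of different motifs can share only bases at their ends. The promoters of 3 members whose differences passed the test given below follow. They were picked among those with a match to these motifs, so each holds a match by choice. They belong to Uqcrc1, a core subunit of complex III lower in culture, and to Ppargc1a, the coactivator gene, lowest under LPS. The last belongs to Cox8b, a complex IV isoform higher in culture. Each is written 5′ to 3′ on the strand of the gene with the motif matches in capitals.
Uqcrc1, chr9:108936398-108936697, + strand: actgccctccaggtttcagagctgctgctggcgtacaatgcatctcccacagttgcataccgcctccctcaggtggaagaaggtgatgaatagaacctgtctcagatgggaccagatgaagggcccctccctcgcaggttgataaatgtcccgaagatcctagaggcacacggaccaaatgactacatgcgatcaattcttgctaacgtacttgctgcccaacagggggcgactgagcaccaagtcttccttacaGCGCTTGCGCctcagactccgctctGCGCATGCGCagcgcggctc
Ppargc1a, chr5:51567676-51567975, - strand: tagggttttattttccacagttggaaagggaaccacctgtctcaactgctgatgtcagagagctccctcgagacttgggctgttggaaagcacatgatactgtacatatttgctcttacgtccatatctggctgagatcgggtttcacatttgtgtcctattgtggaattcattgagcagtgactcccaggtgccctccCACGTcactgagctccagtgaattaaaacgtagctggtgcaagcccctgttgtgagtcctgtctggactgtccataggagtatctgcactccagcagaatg
Cox8b, chr7:140900397-140900696, - strand: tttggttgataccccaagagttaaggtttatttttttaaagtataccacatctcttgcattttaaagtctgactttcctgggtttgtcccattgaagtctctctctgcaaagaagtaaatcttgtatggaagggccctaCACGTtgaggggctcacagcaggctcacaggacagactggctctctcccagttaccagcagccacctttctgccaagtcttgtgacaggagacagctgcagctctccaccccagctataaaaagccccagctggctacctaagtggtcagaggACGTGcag
The capitals in Uqcrc1 are NRF-1 motifs that begin at bases 256 and 281 of the window. Those in Ppargc1a and Cox8b are hypoxia cores, which begin at base 200 in Ppargc1a and at bases 140 and 293 in Cox8b. These matches describe the letters of the windows, and no binding was measured. Of the other subunits lower in untreated gliospheres than in vivo, Cox6a1 had an NRF-1 match, and Ndufv1, Cox5b, Atp5b and Atp5g1 had none. Of the subunits higher there, Atp5o had an NRF-1 match, and Cox8b, Cox6b2, Cox7a1 and Ndufc2 had none. No promoter of Cox6a2, also higher, was at hand.

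The level of a probe is given below as its normalized signal on the log2 scale, with background removed, so that a difference of 1 is a 2-fold difference. Levels compare arrays for 1 probe and not different probes. Differences come from 1 limma fit over all 9 arrays and 14794 probes, with p-values adjusted by Benjamini-Hochberg over all of them and a threshold of 0.05, and a gene stands for its tested probe with the highest mean. Arrays detected 46.6% to 50.1% of probes. Gfap itself was detected on all 3 untreated and all 3 LPS arrays (means 8.14 and 8.61) but on none of the in vivo arrays. Of 8 glial markers on the array, 4 were detected on all in vivo arrays, among them Ngfr (13.34) and Entpd2 (12.47). Gfap and Foxd3 were detected on none of them, and S100b and Fabp7 on 2 of the 3. In untreated and LPS-stimulated gliospheres 6 and 5 of the 8 were detected on all arrays, and 2 on none in each group.

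In vivo replicate 1 stood apart from the other 2 arrays of its group. Of the 73 member genes, 13 (17.8%) were more than 1 log2 unit lower on it than on both other in vivo arrays, as were 13.6% of all 10795 genes tested. No other array had more than 1 such member. Ndufa1, an accessory subunit of complex I, read 10.41 on in vivo replicate 1 against 12.91 and 12.76 on replicates 2 and 3. Atp5g3, a gene for the membrane ring of ATP synthase, read 12.97 against 14.69 and 15.19, and Cox5a, a subunit of complex IV, read 11.56 against 13.34 and 13.28. Ndufa4, counted first with complex I and now with complex IV, read 11.39 against 13.18 and 13.44. Over the 72 subunits the median departure of this array from the mean of the other 2 was -0.49, with 56 of the 72 below it, whereas the gliosphere arrays lay between -0.13 and 0.18. The smooth muscle myosin gene Myh11 was also uneven in vivo, at 11.48 on replicate 1, 9.53 on replicate 2 and 8.42 on replicate 3, and its part in these readings was not tested.

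**Figure D1:**
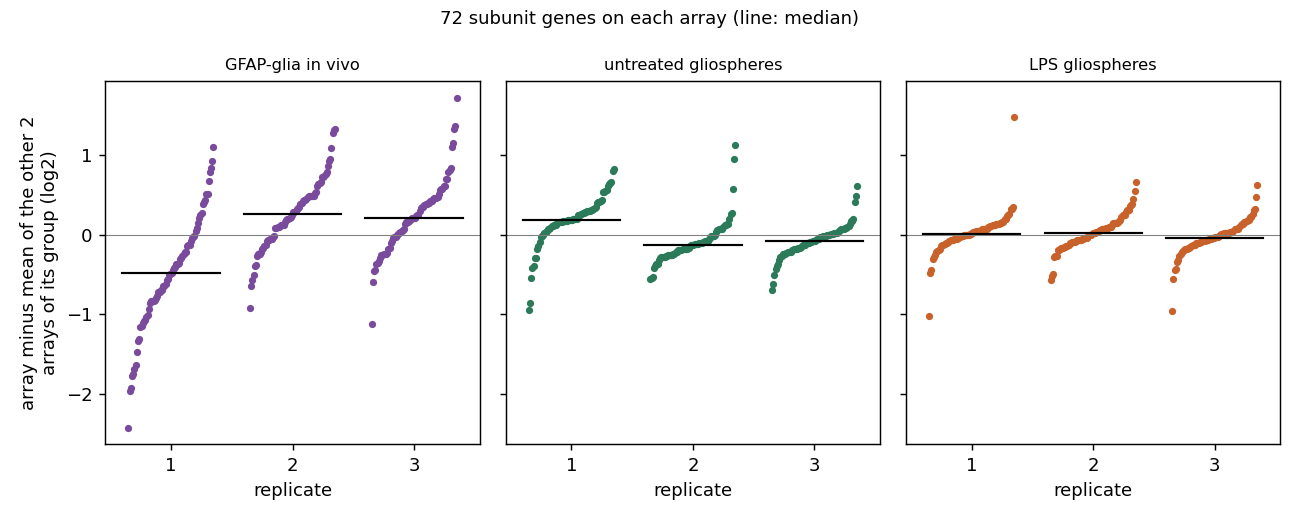
Each point is 1 of the 72 subunit genes, placed by its level on 1 array minus the mean of the other 2 arrays of its group (y axis, log2), for replicates 1 to 3 (x axis) of each group, and the line is the median. In vivo replicate 1 has a median of -0.49 and reaches down to -2.43, and the gliosphere arrays keep medians between -0.13 and 0.18.

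Ppargc1a differed in all 3 comparisons. It read 7.65, 7.56 and 8.10 in GFAP-glia in vivo, 6.78, 6.29 and 5.84 in untreated gliospheres and 4.56, 3.95 and 3.54 in LPS-stimulated gliospheres. The 3 groups did not overlap, and the probe was detected on all in vivo and untreated arrays and on no LPS array. Untreated gliospheres were 1.46 log2 units below glia in vivo (6.30 ± 0.47 against 7.77 ± 0.29, SD, n = 3 each; standard error 0.34, adjusted p = 0.0133 by limma), a 2.76-fold difference. The LPS level is only a bound, because the signal was not above background there. Ppargc1a was at least 2.79-fold lower in LPS-stimulated than in untreated gliospheres (adjusted p = 0.0183 by limma) and at least 7.71-fold lower than in vivo (adjusted p = 7.19e-05 by limma). In the LPS comparison the adjusted p rose to 0.0751 and 0.0905 when untreated replicate 1 or 2 was dropped and to 0.0995 and 0.0879 when LPS replicate 2 or 3 was, and the authors' own normalized values gave a difference of -0.52 (adjusted p = 0.233). The same values gave -0.70 for untreated (adjusted p = 0.00639) and -1.22 for LPS-stimulated gliospheres (adjusted p = 0.000241, limma) against glia in vivo, so the sizes above, the 7.71-fold bound included, hold for the scale used here. With quantile normalization, median scaling or no background correction the differences under LPS were -1.39, -1.41 and -1.44, and those of LPS-stimulated gliospheres from glia in vivo were -2.65, -2.84 and -2.66, all past the test. The difference between untreated gliospheres and glia in vivo had an adjusted p of 0.0546 without untreated replicate 3.

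Ppargc1b, from the list of biogenesis regulators, was lower in culture as well. It read 8.40, 8.37 and 8.22 in vivo, 5.28, 4.67 and 5.67 in untreated and 4.77, 4.85 and 5.15 in LPS-stimulated gliospheres, detected on 3, 2 and 1 arrays of these groups. Both gliosphere groups lay below the in vivo arrays and overlapped each other. The difference was -3.12 for untreated gliospheres (standard error 0.28, adjusted p = 9.13e-05 by limma) and -3.41 for LPS-stimulated gliospheres (adjusted p = 4.33e-05), both against the same in vivo arrays, and -0.28 between the gliosphere groups (adjusted p = 1).

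**Figure D2:**
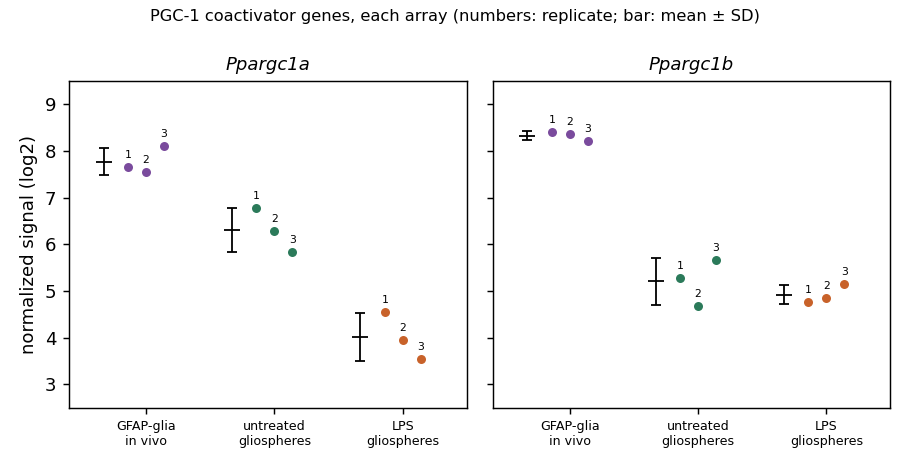
Normalized signal (y axis, log2) of Ppargc1a and Ppargc1b on each array of the 3 groups (points, numbered by replicate), with the mean and SD of the group beside them. The mean of Ppargc1a is 7.77 in vivo, 6.30 in untreated and 4.02 in LPS-stimulated gliospheres, and that of Ppargc1b is 8.33, 5.21 and 4.92.

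LPS stimulation left no subunit gene past the test. Of the 73 member genes, 0 were higher under LPS, where 0.76% of all genes were, and 1 was lower, where 0.204% were, and this 1 was Ppargc1a. The subunits had a median difference of -0.06, and 68 of the 72 lay within 0.5 log2 units of 0. The 95% interval stayed inside a 2-fold change either way for 60 of the 72. Neither count was made over all genes. The lower and upper quartiles of the differences were -0.12 and 0.03 for the subunits and -0.22 and 0.18 for all genes. By complex, the median was -0.08 for complex I (33 genes), -0.00 for complex II (3), 0.02 for complex III (7), -0.04 for complex IV (14) and -0.05 for complex V (15), with -0.01 over all 10795 genes. Without the adjustment 1 of the 72 subunits had a p under 0.05, as had 868 of all 10795 genes. It was Cox6a2, the muscle form of complex IV subunit VIa. Its difference was 0.91 (standard error 0.36, adjusted p = 0.554 by limma), from 4.13, 4.53 and 4.81 in untreated to 5.45, 5.64 and 5.11 in LPS-stimulated gliospheres, and it was detected on 1 untreated array. The smallest adjusted p was 0.973 in complex I (Ndufb11, an accessory subunit near background, at -0.92) and 1 in complexes II, III and V. Of 6 fibroblast markers, 2 rose in the same comparison, Dcn by 2.80 (adjusted p = 0.0316) and Lum by 2.08 (adjusted p = 0.0166, limma), both genes of small leucine-rich proteoglycans. The summed signal of the 6 was 6821 to 7790 in untreated and 14842 to 17997 in LPS-stimulated gliospheres, a rise that Dcn carried. Without Dcn the other 5 summed to 4088 to 6068 in untreated and 4397 to 6219 in LPS-stimulated gliospheres. All 6 were detected on all of these arrays, and their part in the difference of Ppargc1a was not tested.

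In the comparison of untreated gliospheres with glia in vivo, 6 member genes were higher in culture and 7 were lower, 8.22% and 9.59% of the 73, beside 13.2% and 12.9% of all genes. The median difference was 0.02 over the members and 0.09 over all genes. The 95% interval stayed inside a 2-fold change for 42 of the 72 subunits, which was not counted over all genes. The count of 13 depended on single arrays, at 4, 2 and 1 without untreated replicates 1, 2 and 3, at 4, 3 and 3 without LPS replicates 1, 2 and 3, and at 12, 9 and 7 without in vivo replicates 1, 2 and 3. It was 2 (Cox8b and Ppargc1a) with only these 2 groups in the fit and also 2 without the detection filter.

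LPS-stimulated gliospheres had 4 member genes above the same in vivo arrays (14.8% of all genes were) and 6 below them (14.5% of all genes). The count of 10 became 17 without in vivo replicate 1, 4 higher and 13 lower, and stood at 8 and 7 without in vivo replicates 2 and 3. It was 5, 4 and 4 without untreated replicates 1, 2 and 3 and 5, 4 and 3 without LPS replicates 1, 2 and 3. The 95% interval stayed inside a 2-fold change for 41 of the 72 subunits, again not counted over all genes. This comparison shares its in vivo arrays with the one before, so a gene named in both does not rest on independent measurements.

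**Figure D3:**
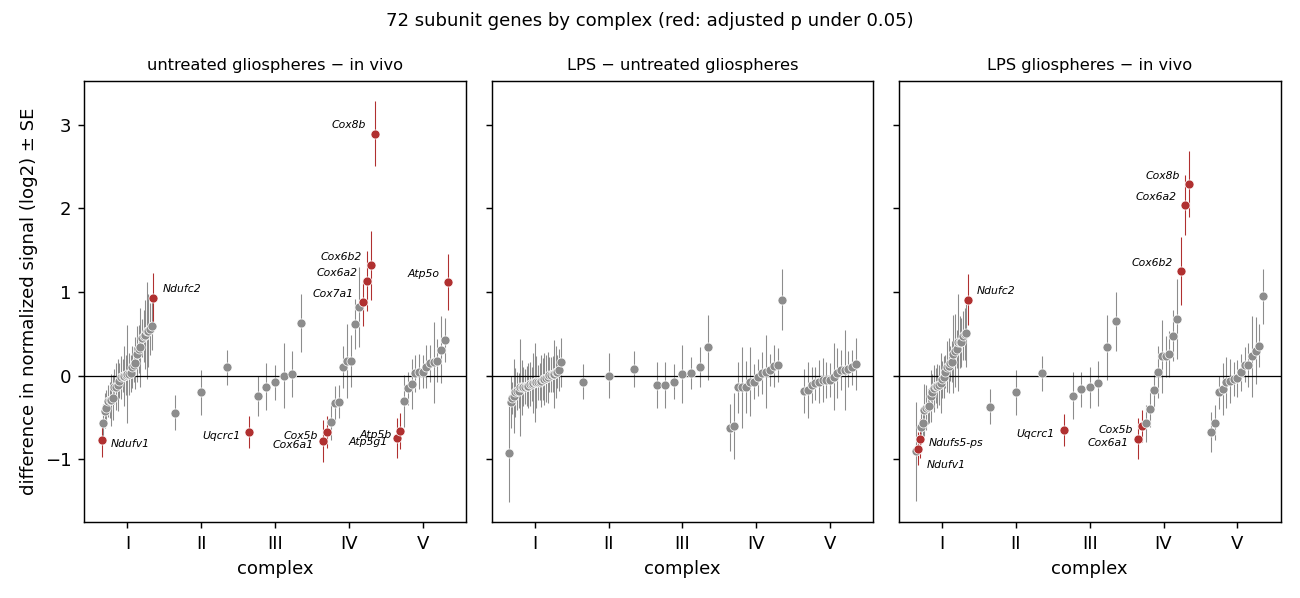
Difference in normalized signal (y axis, log2, with standard error) for each of the 72 tested subunit genes, sorted within complexes I to V (x axis), in the 3 comparisons, with genes past the adjusted p of 0.05 in red and named. No subunit is red in the LPS comparison, and Cox8b stands highest in both comparisons with glia in vivo, at 2.89 and 2.29.

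In complex I, 1 of 33 genes was higher and 1 was lower in untreated gliospheres than in vivo (3.03% each, beside 13.2% and 12.9% of all genes). Ndufv1, the flavoprotein that takes electrons from NADH, read 13.07, 13.08 and 13.12 in vivo, 12.51, 12.13 and 12.30 in untreated and 12.25, 12.26 and 12.15 in LPS-stimulated gliospheres. All 6 gliosphere arrays lay below all 3 in vivo arrays. Its difference was -0.77 for untreated (standard error 0.20, adjusted p = 0.021) and -0.87 for LPS-stimulated gliospheres (adjusted p = 0.011, both by limma), 1.71-fold and 1.83-fold lower. The first missed the threshold without untreated replicate 2 (adjusted p = 0.0883) or 3 (0.0697), and the second without LPS replicate 3 (0.0503).

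Ndufc2, an accessory subunit of the membrane arm, went the other way, at 9.27, 10.28 and 10.34 in vivo, 10.88, 10.82 and 10.98 in untreated and 10.78, 10.89 and 10.95 in LPS-stimulated gliospheres. No gliosphere array overlapped the in vivo arrays, of which replicate 1 was the lowest. The differences of 0.93 (adjusted p = 0.0497) and 0.91 (adjusted p = 0.0496, limma) lay at the threshold. Without in vivo replicate 1 they shrank to 0.58 and 0.56, with adjusted p of 0.0243 and 0.0254, and each passed in 3 of 9 refits that dropped 1 array. Ndufs5-ps, a pseudogene entry whose probe may also bind the RNA of its parent gene Ndufs5, was lower in LPS-stimulated gliospheres than in vivo, by 0.75 (adjusted p = 0.0366 by limma), and missed the threshold in untreated gliospheres (-0.57, adjusted p = 0.101). The first difference passed in 3 of 9 refits that dropped 1 array (adjusted p up to 0.118). It read 11.93, 11.41 and 11.42 in vivo and 10.92, 10.74 and 10.85 under LPS. Ndufb6 and Ndufv3 had probes that disagreed. The chosen probe of Ndufb6 showed -0.13 (adjusted p = 0.7) and its second probe 0.97 (adjusted p = 0.0319) in untreated gliospheres against glia in vivo. For Ndufv3 the chosen probe showed -0.06 (adjusted p = 0.864), another 0.96 (adjusted p = 0.0389) and the last -0.10 (adjusted p = 0.761), all by limma.

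Complex II had 3 genes on the array and none passed a test. Sdhb, the iron-sulfur subunit, differed by -0.20 between untreated gliospheres and glia in vivo (10.27 ± 0.11 against 10.47 ± 0.50, SD, n = 3 each; adjusted p = 0.639 by limma) and by -0.00 between the gliosphere groups. Sdhc, a membrane anchor, read 12.24, 11.84 and 11.87 in vivo, 11.48, 11.49 and 11.66 in untreated and 11.69, 11.50 and 11.66 in LPS-stimulated gliospheres. Its arrays did not overlap between culture and in vivo, but the difference of -0.44 (standard error 0.21) had an adjusted p of 0.157 by limma. Sdhd, the other anchor, differed by 0.10 (adjusted p = 0.774 by limma).

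In complex III, Uqcrc1, the core protein whose promoter is printed above, read 12.07, 12.04 and 11.81 in vivo, 11.37, 11.22 and 11.31 in untreated and 11.30, 11.34 and 11.34 in LPS-stimulated gliospheres. The in vivo arrays were all above the gliosphere arrays. The difference was -0.67 for untreated (standard error 0.19, adjusted p = 0.0327) and -0.65 for LPS-stimulated gliospheres (adjusted p = 0.0343, limma), 1.6-fold and 1.57-fold lower. When single arrays were dropped in turn, each passed in 2 of 9 refits, and the highest adjusted p was 0.112 and 0.106. None of the other 6 tested genes of complex III passed, and their differences ran from -0.24 to 0.63 in untreated gliospheres. Uqcrfs1, the gene of the Rieske iron-sulfur protein, was detected on 2 of the 9 arrays only. Cyc1, which encodes cytochrome c1 of the same complex and lies outside the name rule, was lower too, by 0.89 in untreated (adjusted p = 0.0162) and by 0.83 in LPS-stimulated gliospheres (adjusted p = 0.0197, limma). The first call was lost without untreated replicate 2 or 3, and the second without LPS replicate 1, 2 or 3.

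Complex IV held 6 of the 12 subunits past the test in untreated gliospheres against glia in vivo. Of its 14 genes 4 were higher and 2 lower (28.6% and 14.3%, beside 13.2% and 12.9% of all genes). Cox8b, the muscle form of subunit VIII, read 7.51, 8.06 and 9.11 in vivo, 11.49, 10.77 and 11.11 in untreated and 10.44, 10.39 and 10.74 in LPS-stimulated gliospheres. Every gliosphere array was above every in vivo array. Untreated gliospheres stood 2.89 log2 units higher (11.12 ± 0.36 against 8.23 ± 0.81, SD, n = 3 each; standard error 0.39, adjusted p = 0.000917 by limma), 7.44-fold, and LPS-stimulated gliospheres 2.29 higher (adjusted p = 0.00261), 4.9-fold. Both differences passed in all 9 refits that dropped 1 array, where they lay between 2.54 and 3.34 and between 1.94 and 2.74. The difference between the gliosphere groups was -0.60 (standard error 0.39, adjusted p = 0.987 by limma). Cox8a, the common form of the same subunit, did not pass, at -0.33 (adjusted p = 0.275) and -0.40 (adjusted p = 0.191, limma).

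The muscle form of subunit VIa, Cox6a2, was detected on no in vivo array, 1 untreated array and all 3 LPS arrays, and was at least 1.45-fold higher in LPS-stimulated gliospheres than in vivo (adjusted p = 0.00312 by limma). This call was lost with median scaling (0.50, adjusted p = 0.144), and the authors' normalized values gave 0.41 (adjusted p = 0.0133), below that bound. In untreated gliospheres, near background on both sides, its difference had an adjusted p of 0.0491 and turned from 1.13 to -0.16 with median scaling, so no fold is given. Its common partner Cox6a1 went down, from 13.61, 12.91 and 12.97 in vivo to 12.50, 12.21 and 12.44 in untreated and 12.38, 12.48 and 12.39 in LPS-stimulated gliospheres. The differences were -0.78 (adjusted p = 0.0448) and -0.75 (adjusted p = 0.0478, limma), and a second probe showed -0.64 (adjusted p = 0.119) and -0.65 (adjusted p = 0.108). With an array left out, Cox6a1 passed in 3 and 2 of 9 fits. Cox6b2, a form known from testis, was 5.62, 6.71 and 5.91 in vivo, 6.82, 7.57 and 7.80 in untreated and 6.65, 7.70 and 7.65 in LPS-stimulated gliospheres, with differences of 1.32 (adjusted p = 0.045) and 1.25 (adjusted p = 0.0494, limma) that passed in 3 of 9 refits each that dropped 1 array. Its common partner Cox6b1 differed by -0.55 (adjusted p = 0.102) and -0.57 (adjusted p = 0.0848, limma). Cox7a1, the muscle form of subunit VIIa, was 0.88 higher in untreated gliospheres than in vivo (7.04 ± 0.33 against 6.16 ± 0.36, SD, n = 3 each) with an adjusted p at the threshold (0.05 by limma) that passed in 1 of 9 refits that dropped 1 array, and its difference was 0.26 (adjusted p = 0.537) in LPS-stimulated gliospheres. Cox7a2, its common partner, differed by 0.62 (adjusted p = 0.165 by limma) and the related Cox7a2l by 0.10 (adjusted p = 0.804).

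Cox5b, a subunit with 1 form, was lower in both gliosphere groups, at 13.31, 13.37 and 13.50 in vivo, 12.85, 12.67 and 12.66 in untreated and 12.83, 12.75 and 12.81 in LPS-stimulated gliospheres. The differences were -0.67 (adjusted p = 0.0329) and -0.60 (adjusted p = 0.0459, limma), which passed in 2 and 1 of 9 refits that dropped 1 array. Of the isoforms of subunit IV, which the name rule leaves out, Cox4i1 differed by -0.19 (adjusted p = 0.668 by limma). Cox4i2, the form known to be induced by low oxygen, was detected on 1 untreated, 1 LPS and no in vivo array. It did not pass, but for untreated gliospheres against glia in vivo it passed with no background correction and without untreated or LPS replicate 1.

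**Figure D4:**
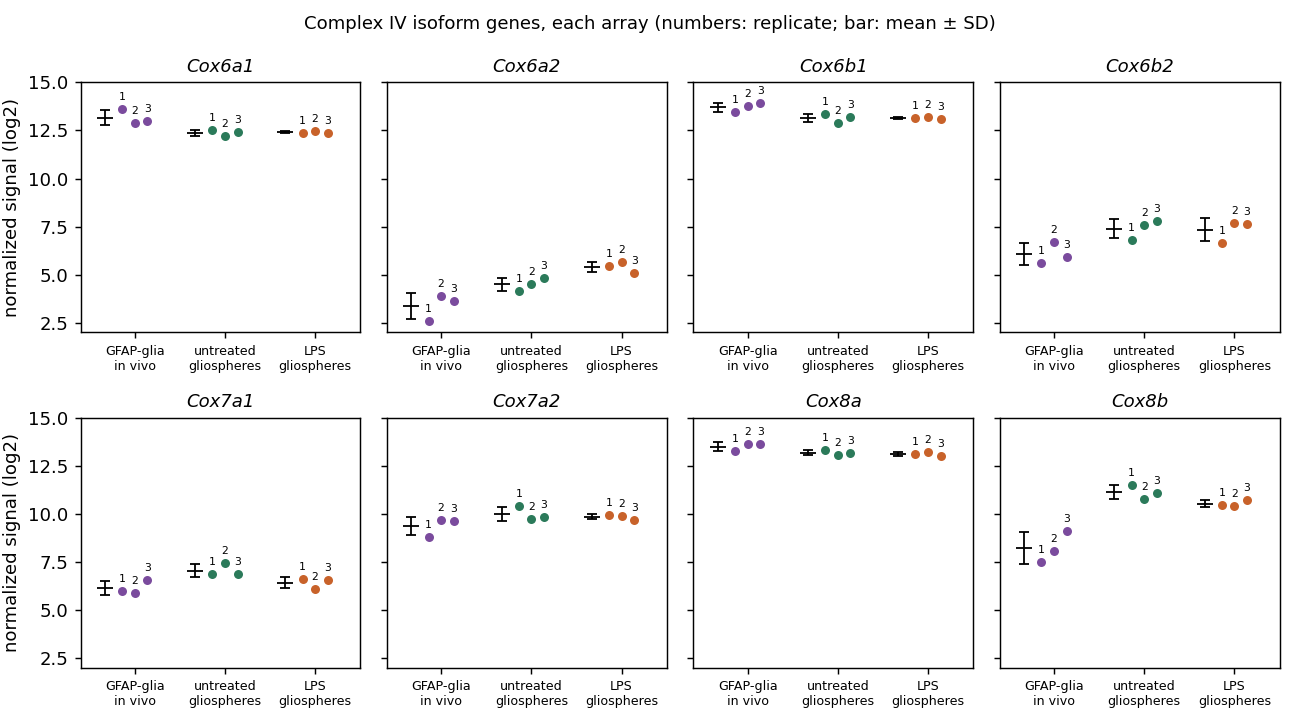
Normalized signal (y axis, log2) of 8 isoform genes of complex IV on each array (points, numbered by replicate) with the mean and SD of each group beside them; levels of different genes come from different probes and are not comparable. Cox8b lies between 7.51 and 9.11 in vivo and between 10.39 and 11.49 in gliospheres, whereas Cox8a stays between 13.02 and 13.64 in all 3 groups.

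Markers of muscle were compared because several of these isoforms are known from muscle. Their summed signals are deposited intensities with background included. The 7 striated muscle markers on the array summed to 8278 to 16047 in vivo, 1291 to 1476 in untreated and 878 to 1260 in LPS-stimulated gliospheres, a sum that Myl1 carried. Without Myl1 the other 6 summed to 797 to 915 in vivo, 917 to 1133 in untreated and 740 to 1003 in LPS-stimulated gliospheres. Ckm, Myh6 and Myh7 were detected on no array, and 3 of the 4 tested markers were lower in both gliosphere groups than in vivo (Acta1, Myl1 and Tnni3) and none was higher. Myl1, a myosin light chain, read 14.17 on average in vivo, 7.16 in untreated and 5.22 in LPS-stimulated gliospheres. The 8 smooth muscle markers summed to 5201 to 24774 in vivo, 7814 to 11514 in untreated and 3711 to 6207 in LPS-stimulated gliospheres. Without Acta2, the brightest, the other 7 summed to 2091 to 12177 in vivo, 2101 to 2393 in untreated and 1563 to 2262 in LPS-stimulated gliospheres. Of the 7 tested, 3 were lower in untreated and 4 in LPS-stimulated gliospheres than in vivo and none was higher. The smooth muscle actin gene Actg2, detected on 2 of 3 untreated arrays, was 102-fold lower there (adjusted p = 0.000125), and Myh11 and Des, detected on no gliosphere array, were at least 33.1-fold (adjusted p = 0.0002) and 9.93-fold lower (adjusted p = 0.000311, limma). Of 9 tested markers of enteric neurons, 6 were lower in untreated gliospheres than in vivo and none was higher, and of 7 glial markers 3 were higher and 1 was lower. Among all genes 13.2% were higher and 12.9% lower in untreated gliospheres than in vivo. For LPS-stimulated gliospheres these shares were 14.8% and 14.5%. In whole RNA of a sorted or cultured sample, fewer cells of a type and less RNA per cell cannot be told apart, and the part of other cell types in the differences of Cox8b, Ndufv1, Uqcrc1, Cox5b, Cox6a1 and ATP synthase genes was not tested.

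In complex V, 1 of 15 genes was higher and 2 were lower in untreated gliospheres than in vivo (6.67% and 13.3%, beside 13.2% and 12.9% of all genes). Atp5b, the catalytic beta subunit, read 14.81, 14.90 and 15.27 in vivo, 14.42, 14.27 and 14.32 in untreated and 14.43, 14.42 and 14.45 in LPS-stimulated gliospheres. The difference was -0.66 in untreated (standard error 0.21, adjusted p = 0.0465) and missed the threshold at -0.56 in LPS-stimulated gliospheres (adjusted p = 0.0728, limma). Atp5g1 is 1 of 3 genes that encode the same ring subunit. It read 12.20, 12.71 and 12.66 in vivo, 12.05, 11.57 and 11.73 in untreated and 11.94, 11.81 and 11.81 in LPS-stimulated gliospheres, a difference of -0.74 (adjusted p = 0.0475) and -0.67 (adjusted p = 0.0609, limma). With an array left out, Atp5b and Atp5g1 each passed in 1 of 9 fits, the 1 without in vivo replicate 1. Atp5g2 differed by 0.03 (adjusted p = 0.942) and Atp5g3 by 0.16 (adjusted p = 0.84), the latter with an SD of 1.16 in vivo. Atp5o, a subunit of the stalk that joins the motor to the membrane part, went up from 6.05, 5.75 and 4.78 in vivo to 6.70, 6.77 and 6.46 in untreated gliospheres, a difference of 1.12 (standard error 0.33, adjusted p = 0.0346 by limma), and read 6.49, 6.30 and 6.65 in LPS-stimulated gliospheres (0.95, adjusted p = 0.0571). In vivo replicate 3, its lowest array, was also the in vivo array on which the probe was not detected, and without it the difference was 0.74 with an adjusted p of 0.0598. Atp5o passed in 2 of 9 refits that dropped 1 array (adjusted p up to 0.109), was lost with median scaling (0.47, adjusted p = 0.0877) and differed by 0.36 (adjusted p = 0.0299) in the authors' normalized values.

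The subunits were set beside lists of other mitochondrial and metabolic genes. Between the gliosphere groups none of these lists had a gene past the test by limma. Over all 10795 genes, 868 had an unadjusted p under 0.05. Among the listed genes 4 had one, all of them in the list of HIF targets and glycolysis. In that list 19 of 22 genes had a positive difference under LPS, as had 5213 of all 10795 genes and 25 of the 72 subunits. The median of the list was 0.30. Hk2, the inducible hexokinase, read 6.99, 7.05 and 7.25 in untreated and 8.83, 9.26 and 8.68 in LPS-stimulated gliospheres, a difference of 1.82 that missed the threshold (adjusted p = 0.0788 by limma), and Slc2a1, the glucose transporter GLUT1, differed by 1.28 (adjusted p = 0.0808). Hk2 passed in 9 and Slc2a1 in 7 of 21 alternative settings. These values stand beside a median of -0.06 for the respiratory subunits in the same arrays.

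Against glia in vivo, untreated gliospheres had 4 higher and 1 lower of 15 biogenesis and mtDNA maintenance genes (26.7% and 6.67%). The shares over all genes, 13.2% higher and 12.9% lower, stand beside this count and those of the other lists. The mitochondrial transcription factor Tfam was higher by 0.67 (adjusted p = 0.0426 by limma). Among refits that dropped 1 array, Tfam passed only without in vivo replicate 1 or 2. The polymerase subunit Polg2 was higher by 1.85 (adjusted p = 0.0051) and the transcription termination factor gene Mterf1a by 1.26 (adjusted p = 0.00503, limma). The lower gene was Ppargc1b. The orphan receptor Esrra, a partner of PGC-1α, was 0.67 higher in untreated gliospheres without passing (adjusted p = 0.0795) and 0.89 higher in LPS-stimulated gliospheres (adjusted p = 0.0257, limma). The latter call was lost on dropping LPS replicate 1, 2 or 3. Of 16 citrate cycle genes, 1 was higher and 3 were lower (6.25% and 18.8%). The lower genes were Ogdh of the oxoglutarate dehydrogenase complex (-1.51, adjusted p = 0.00114) and the isocitrate dehydrogenase subunits Idh3a (-1.20, adjusted p = 0.00703) and Idh3g (-0.71, adjusted p = 0.0322, limma). Among refits that dropped 1 array, Idh3g passed only without in vivo replicate 1 or 2. The higher gene was Suclg2, a succinyl-CoA ligase subunit (1.31, adjusted p = 0.00725 by limma). Of 22 HIF and glycolysis genes 4 were higher and 2 were lower (18.2% and 9.09%). Of the 22 differences 11 were positive and 11 negative, with a median of 0.02 and the lowest at -1.64. Those named next were all higher. The oxygen-sensing hydroxylase Egln3 stood at 2.56 (adjusted p = 0.00018) and Hk2 at 1.90 (adjusted p = 0.00646, limma). The carbonic anhydrase Car9, not detected in vivo, was at least 1.33-fold higher (adjusted p = 0.0197 by limma). Its call was lost without untreated replicate 2 or 3 or in vivo replicate 3.

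Of 32 assembly factors 3 were higher (9.38%) and none was lower. They were led by Cox11 at 1.18 (adjusted p = 0.021) and Ndufaf4 at 1.14 (adjusted p = 0.0113, limma), which serve complexes IV and I. The third was Acad9, a complex I assembly factor, at 0.78 (adjusted p = 0.0349 by limma). Among refits that dropped 1 array, Acad9 passed only without in vivo replicate 1. Cox11 was lost without any 1 untreated replicate and without in vivo replicate 3. Of 71 mitochondrial ribosomal protein genes 1 was higher (Mrpl53, 1.01, adjusted p = 0.0106) and 1 was lower (Mrpl45, which was not detected in untreated gliospheres, at least 1.58-fold, adjusted p = 0.0438, limma), a share of 1.41% each way. Among refits that dropped 1 array, Mrpl45 passed only without LPS replicate 1 or 3 or in vivo replicate 2. None of the 6 genes for uncoupling proteins, adenine nucleotide carriers and the ATPase inhibitor passed, and of 6 subunits and carriers outside the name rule 1, Cyc1, was lower.

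LPS-stimulated gliospheres against the same in vivo arrays had 5 higher and 1 lower of 15 biogenesis genes (33.3% and 6.67%). They had 3 lower of 16 citrate cycle genes (18.8%) and 6 higher and 1 lower of 22 HIF and glycolysis genes (27.3% and 4.55%). Assembly factors had 2 higher and 2 lower of 32 (6.25% each), and mitochondrial ribosomal genes 3 higher of 71 (4.23%). In addition 1 subunit outside the name rule was lower, and no uncoupling gene passed. Over all genes 14.8% were higher and 14.5% lower. Hk2 showed 3.72 (adjusted p = 0.000134), Egln3 3.40 (adjusted p = 2.94e-05), Ogdh -1.46 (adjusted p = 0.00113) and Polg2 2.15 (adjusted p = 0.00197, limma). Hk2 and Polg2 were each detected on 2 of the 3 in vivo arrays.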

How the data were processed

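RNA of 9 samples, 3 per group, was hybridised to Illumina MouseRef-8 v2.0 arrays by the authors, who deposited GenomeStudio signals as raw intensity values with a detection p-value for each probe. Many cells of both deposited intensity tables had lost their decimal point. It was restored from the paired signal and normalized value of each probe, since within an array the normalized value rises with the signal, and 1 of 25697 probes could not be settled. The log2 of the authors' normalized intensity served as an alternative. Its sorted values differ between arrays by at most 1% of their mean at any rank, as after quantile normalization, whereas the methods name normexp and variance stabilization. Signals were background-corrected by normexp on the moments of the negative controls, as inferred from the detection p-values (nec, limma 3.58.1, R 4.3.3), and brought to a common log2 scale by variance stabilization, programmed for this work because the vsn package was not installed. Probes with a detection p of 0.05 or less on at least 1 of 9 arrays and an annotated symbol entered limma (6 residual and 3.11 prior degrees of freedom). The fits were tested on simulated data. Promoters came from RefSeq (GRCm38.p6).

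Each gliosphere preparation was split between the untreated and the LPS group, but the labels do not say that a replicate number marks a preparation, so the replicate block was an alternative only. Within a group each replicate used its own litter, whereas untreated and LPS-stimulated gliospheres came from the same litters, which the main fit did not pair. The precision is limited by 3 arrays per group. For each complex and comparison, up to 4 members past the test in each direction were named, with the isoform sets, the Sdh genes and Ppargc1a. Ndufa1, Cox5a, Tfam, Esrra, Idh3g and Slc2a1, and Hk2 under LPS, were named after their values were seen. Alternatives were other normalizations, filters, spread estimates, a replicate block and leaving out each array. Members and lists were chosen with earlier results of these data known.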

Additional observations from a re-analysis of the deposited data

How the results depend on the processing

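With 3 arrays per group, many calls lay near the threshold, and signals near background (Cox6a2, Ppargc1a under LPS, Uqcrfs1, Ndufb11) were the least certain. Of 399 refits of the 21 subunit calls against glia in vivo, 214 kept direction and call, 184 kept direction only, and 1 turned, the difference of Cox6a2 in untreated gliospheres, which was -0.16 with median scaling. Of 195 uncalled pairs of member and comparison, 13 passed in at least 1 alternative. The cause of these changes was not tested beyond the samples or probes each setting removes.

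For untreated gliospheres against glia in vivo, 13 member genes passed, 2 without the detection filter, 2 with only the 2 groups compared and 1 to 12 with an array left out. For LPS-stimulated gliospheres against glia in vivo, 10 passed, 4 without the detection filter, 4 with only the 2 groups compared, 16 with array weights (in vivo replicate 1 had a weight of 0.11) and 3 to 17 with an array left out. Between the gliosphere groups 1 passed, 0 with the authors' normalized values and 0 to 1 with an array left out. With an array left out, the median difference of the members lay between -0.14 and 0.15, between -0.10 and 0.02 under LPS, and between -0.22 and 0.07 for LPS-stimulated gliospheres against glia in vivo. That of Ppargc1a lay between -1.70 and -1.23, between -2.56 and -2.05, and between -4.02 and -3.51 in the same order, and with the authors' values was -0.70, -0.52 and -1.22.

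Replicate numbers were not tied to preparations by the labels. Deviations of untreated and LPS-stimulated gliospheres of 1 number from their group means correlated at 0.09 to 0.17, against -0.14 to -0.02 for unlike numbers, so each sample correlated best with its own number, a hint from the data and not the design. Between gliospheres and glia in vivo the values were -0.18 to 0.07 and -0.09 to 0.19. With the replicate block 6 and 5 member genes passed in the 2 comparisons with glia in vivo. Between the gliosphere groups Ppargc1a still passed (adjusted p = 0.0419 by limma, and 0.0476 with only the gliosphere arrays). The block changed no other call of that comparison among the members and the other lists, and calls of further genes were not compared.

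Genes of the other lists numbered 21 in untreated gliospheres against glia in vivo, 32 with the authors' values, 13 with only the 2 groups and 10 to 34 with an array left out. For LPS-stimulated gliospheres against glia in vivo they numbered 24, 14 without the detection filter, 14 with only the 2 groups and 12 to 34 with an array left out. Under LPS they numbered 0, 1 with quantile normalization or in some refits that dropped 1 array (0 to 1), and 2 with median scaling, the authors' values, no background correction, a trended and robust spread, array weights or only the 2 groups compared.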
